A study of Mus musculus with 11 samples.

Results

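The genes described here are 10 targets of the transcription factor p53 that act in cell cycle arrest, cell death or feedback on p53. By symbol, these are Cdkn1a, Ccng1, Zmat3, Mdm2, Phlda3, Bax, Bbc3, Pmaip1, Perp and Trp53inp1. They were picked by gene symbol from tables that list 20475 genes each, and all 10 were present and abundant enough to be tested in both tables. Poly(A) RNA was sequenced from mouse forebrain at embryonic day 12.5, a tissue that the study's methods call cortical cells, to ask how gene expression changes without KIF20A, a kinesin of the late mitotic spindle. The germline comparison held 3 wild-type (WT) and 3 Kif20a knockout (KO) libraries from littermates, in which a LacZ and neomycin cassette interrupts the gene, in a strain derived from a single embryonic stem cell clone. The inducible comparison held 2 WT control and 3 KO libraries from litters whose mothers had received tamoxifen on consecutive days before collection. In it, floxed Kif20a (Kif20a fl/fl) was deleted by CreERT2 under the control of Nestin, which drives expression in neural progenitors. The labels call the inducible controls wild type, and elsewhere in the study the controls of this cross were Kif20a fl/fl littermates without Cre, so that deletion and the Cre transgene cannot be told apart in this comparison.

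The tables hold normalized counts, which the study made by counting reads on exons and scaling the libraries of each table to each other. Library totals lay between 13048716 and 15551274 in the germline table and between 24118520 and 24497307 in the inducible one, and levels were not compared between the tables because each was normalized alone. Kif20a had 2295 to 2680.2 normalized counts in germline WT and 374 to 503 in germline KO libraries, and 4760.1 to 4844 against 2853 to 3125 in the inducible libraries. All 8 markers of the dorsal telencephalon were tested in both tables and none passed the thresholds, but in the germline table their sum was 19392 to 21147 in WT and 11904, 40053 and 15691 in KO replicates 1, 2 and 3, each outside the WT range. The germline sum of 9 mesenchymal markers was 5042 to 8904 in WT and 21606, 600 and 10889 in those KO libraries. One germline library, KO replicate 2, stood apart from the other libraries. It lay at 91.2 on the first principal component, which held 58% of the variance, against −38.4 to 3.8 for the others, and the germline results are therefore given with and without it where it matters. Among the inducible libraries, 4 Y-linked genes summed to 2 and 4 normalized counts in the WT and to 2389 to 3209 in the KO libraries, so that Y-linked transcripts and genotype moved together and cannot be told apart.

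In a cell with damaged DNA, a failed division or a prolonged mitosis, p53 is stabilized and binds response elements near its target genes. Some of the products hold the cell cycle, some restrain p53 itself, and others permeabilize mitochondria and start apoptosis. Neural progenitors of the early cortex are known for their sensitivity to p53-dependent death when division goes wrong.

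Of the genes, 2 carried a match to the p53 response element close to a transcription start, and they are shown because they are the members with a match. They are Ccng1, which had the smallest P of the members in the inducible knockout, and Cdkn1a, the inhibitor of cyclin-dependent kinases, which passed the study's thresholds in neither knockout. The element was searched by its name, as 2 adjoining half-sites of 10 bases. Both CNNG cores had to be intact and at most 2 of the 20 bases could depart from the consensus. It reads the same on both strands. The windows ran from 250 bases before to 50 bases after each RefSeq start site (GRCm38.p6), and 107 of 32851 such windows (0.326%) held a match. Of the 10 genes, 6 had entries, with 9 windows, of which 2 held a match. The printed stretches are 60 bases long, on the strand of the gene and 5′ to 3′, with the matched element in capitals.
Cdkn1a, chr17:29090908-29090967, plus strand: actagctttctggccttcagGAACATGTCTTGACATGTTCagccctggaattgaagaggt
Ccng1, chr11:40755442-40755501, minus strand: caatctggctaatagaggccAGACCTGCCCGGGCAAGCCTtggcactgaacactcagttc
The Cdkn1a match began 51 bases before a start site and the Ccng1 match 195 bases before, and each departed from the consensus at 1 base. Among the other p53 targets and the p53 regulators described further on, Trp73 and Gtse1 held a match, with 2 and 1 departures. A match describes these letters only and does not show binding.

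In the germline knockout 1 member, Trp53inp1, passed the thresholds of the study (1.5-fold or more and an unadjusted P no greater than 0.05), and it fell. At those thresholds 0 of 10 members were higher, against 2.07% of all 13938 genes tested, and 1 of 10 was lower, against 0.667%. At the P threshold alone 1 of 10 members passed, against 5.39% of all genes. At an adjusted p under 0.05 (limma, Benjamini-Hochberg over all genes) 0 of 10 passed, against 0.00717% of all genes, which is 1 gene. The KO libraries lay above all WT libraries for 0 of 10 members (5.9% of all genes) and below them for 1 of 10 (7.55%). Log2 fold changes were above 0 for 6 of 10 members (44.0% of all genes), with a median of 0.05 over the members and −0.04 over all genes. That median was 0.24 without KO replicate 2.

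In the inducible knockout the members shared a direction, and among them only Ccng1 passed the P threshold. All 10 log2 fold changes were above 0, against 49.2% of the 14081 genes tested, with a median of 0.19 over the members and −0.002 over all genes. Bax, at 0.01, was below 0 with quantile normalization, library weights or the replicate block and without WT replicate 1 or KO replicate 3. Bbc3 was below 0 without WT replicate 2 or KO replicate 2, and Pmaip1 without WT replicate 1. Relative to the WT mean, the median over the members was 0.15, 0.15 and 0.18 in KO replicates 1, 2 and 3, and without KO replicate 3 the median of the fitted differences was 0.11. The KO libraries lay above both WT libraries for 4 of 10 members, Cdkn1a, Ccng1, Trp53inp1 and Phlda3 (10.4% of all genes), and below both for 0 of 10 (12.2%). At the study's thresholds 0 of 10 members were higher (0.802% of all genes) and 0 of 10 lower (0.49%). At the P threshold alone 1 of 10 passed, Ccng1, against 6.01% of all genes, and at an adjusted p under 0.05 (limma, Benjamini-Hochberg) 0 of 10 passed, against 0.0355%. All 10 differences rest on the same 5 libraries and are not independent of each other. Other cell types were followed by their markers in the same libraries. Of the endothelial markers 8 of 8 had log2 fold changes above 0, of the neuronal markers 14 of 15 (1 called higher), of the microglial markers 7 of 8, and of the cortical hem and choroid plexus markers 0 of 8. The counts were 6 of 12 for progenitors, 5 of 9 for mesenchyme and 3 of 5 for diencephalon (1 called higher). For dorsal telencephalon 2 of 8 were above 0, and for erythroid cells 1 of 9. Summed marker levels overlapped between WT and KO for endothelium (3723 to 5069 against 3944 to 5636 normalized counts) and neurons (66742 to 82054 against 72221 to 89395). The sums did not overlap for microglia (761 to 772 against 798 to 1056) and for hem and choroid plexus (6720 to 7666 against 3523 to 6424). The part of these cells in the members' values was not tested. In bulk tissue, a change in the number of expressing cells and a change in RNA per cell cannot be told apart.

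**Figure D1:**
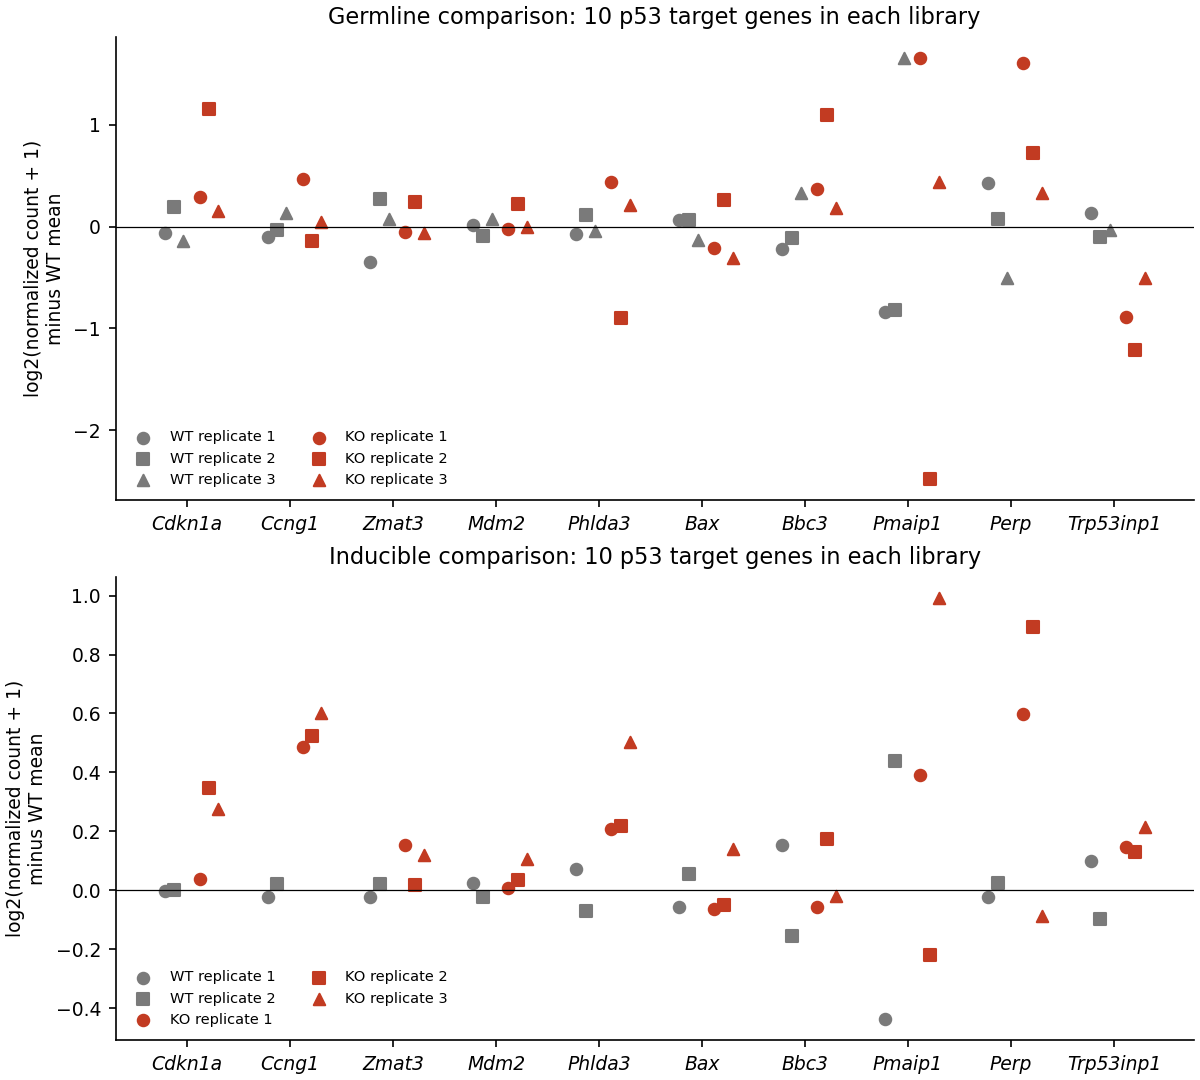
Level of each member in every library, as log2(normalized count + 1) minus the WT mean of its table (vertical axes, scaled separately), for the germline (top) and inducible (bottom) comparison; grey points are WT, red points KO, and symbols mark replicate numbers. Germline KO replicate 2 lies far from the other KO libraries for Cdkn1a, Bbc3, Phlda3 and Pmaip1, and the 3 inducible KO libraries lie above both WT libraries for Cdkn1a, Ccng1, Phlda3 and Trp53inp1.

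In wild-type tissue the members spanned a wide range of levels. Per kilobase of exon, Bax, the effector that opens the outer mitochondrial membrane, was highest in the germline WT libraries at 469.7 ± 37.0 normalized counts (SD, n = 3). Trp53inp1 followed at 376 ± 31.8. Ccng1 at 259 ± 22 and Mdm2 at 242 ± 13.7 did not differ beyond their spread. Zmat3 stood at 158 ± 33.1 and Cdkn1a at 92.3 ± 11.5 per kilobase. Phlda3 at 39.4 ± 2.81, Bbc3 at 30.7 ± 6.61, Pmaip1 at 23.6 ± 25.2 and Perp at 13.8 ± 4.44 formed the low end, where neighbours overlapped, Pmaip1 varying by more than its own mean. In the inducible WT libraries Bax again led, at 845 ± 46.2 (SD, n = 2), and Perp again came last, at 12.7 ± 0.319 per kilobase. Mdm2 at 370.1 ± 8.64, Zmat3 at 318 ± 6.96, Ccng1 at 312 ± 6.55 and Trp53inp1 at 307 ± 29.6 lay close together. These levels use the exon lengths of GENCODE M1 and are only as good as that annotation.

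Ccng1 gave the clearest difference of all members. It codes for cyclin G1, a cyclin that recruits the phosphatase PP2A to MDM2, and lies on chromosome 11 at 40562054 to 40568813 (minus strand, NCBIM37, the build of the tables). The inducible WT libraries held 1079.9 and 1112 normalized counts and the KO libraries 1534, 1575 and 1662. The groups were well separated, the lowest KO library standing far above the higher WT library relative to the spread within each group. The fitted log2 fold change was 0.54 (SE 0.06, 95% CI 0.39 to 0.68), or 1.45-fold, which is just under the study's fold threshold. It ranked 8 of 14081 genes by P, with an adjusted p of 0.0605 (limma, Benjamini-Hochberg), which ran from 0.0230 to 0.509 over the settings tried. It was under 0.05 with a pseudocount of 0.1, without the filter on low values, and with library weights. The exact permutation p of Ccng1 was 0.1, and 2 against 3 libraries cannot give a smaller one.

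In the germline comparison Ccng1 held 847, 887 and 996 normalized counts in WT and 1254, 824 and 935 in KO libraries. The groups overlapped, and only KO replicate 1 lay above the WT range. The log2 fold change was 0.12 (95% CI −0.30 to 0.55), an interval that contains the inducible estimate close to its upper end. The inducible interval, 0.39 to 0.68, did not contain the germline estimate. Without KO replicate 2 the germline estimate was 0.25. Whether the Ccng1 effects of the 2 comparisons differ was not tested.

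Cdkn1a codes for p21, the inhibitor of cyclin-dependent kinases through which p53 arrests cells in G1. It lies on chromosome 17 at 29227924 to 29237667 (plus strand, NCBIM37). The germline WT libraries held 196, 234 and 186 normalized counts and the KO libraries 250.2, 455 and 227. The groups overlapped by 1 library each, and KO replicate 2 stood far above the other KO libraries. Its log2 fold change was 0.53 (SE 0.29, 95% CI −0.15 to 1.21), and 0.22 without KO replicate 2. The adjusted p was 0.779 (limma, Benjamini-Hochberg).

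In the inducible comparison Cdkn1a stood at 516 and 518 normalized counts in WT and at 531, 659 and 626 in KO libraries. The WT libraries were almost equal and KO replicate 1 lay just above them. The difference was, on the log2 scale, 0.22 (SE 0.10, 95% CI −0.02 to 0.47), with an adjusted p of 0.834 (limma, Benjamini-Hochberg).

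Zmat3, a zinc finger RNA-binding protein that is a direct p53 target, was abundant and did not pass the thresholds. Its germline values were 991, 1521 and 1327 normalized counts in WT and 1211, 1489 and 1204 in KO libraries, all KO libraries lying inside the WT range. The inducible values were 2534 and 2614 in WT and 2863, 2607 and 2799 in KO libraries, and KO replicate 2 lay between the WT libraries. The log2 fold changes were 0.04 (95% CI −0.40 to 0.48) and 0.10 (95% CI −0.04 to 0.24).

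**Figure D2:**
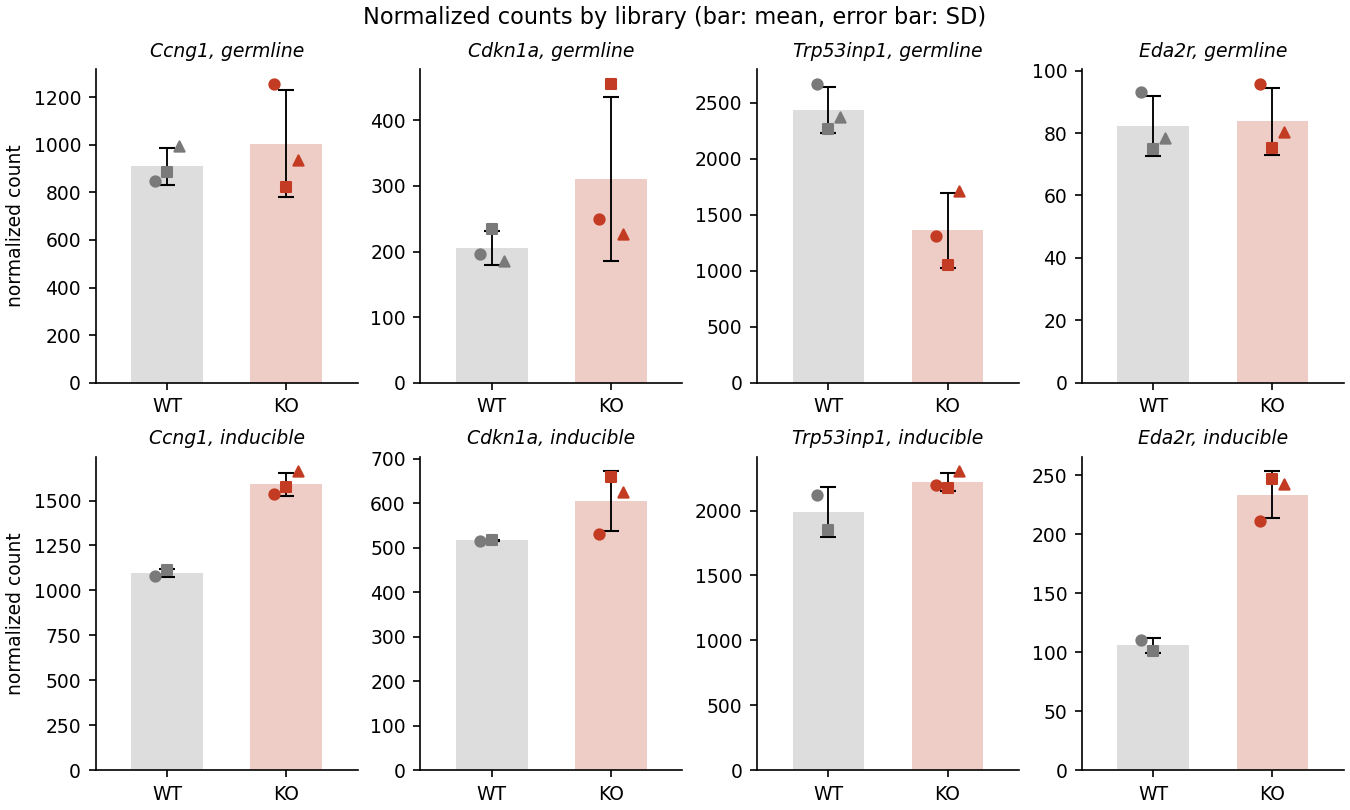
Normalized counts (vertical axes from 0, scaled by gene and comparison) of Ccng1, Cdkn1a, Trp53inp1 and Eda2r in the germline (top) and inducible (bottom) libraries; points are libraries with the replicate symbols of the plot by library, bars are group means and error bars the SD. Ccng1 and Eda2r are separated between WT and KO in the inducible comparison and overlap in the germline one, and Trp53inp1 is below WT in the germline comparison only.

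Mdm2 and Phlda3 feed back on p53 or on survival signalling, and neither passed the thresholds. Mdm2 codes for the ubiquitin ligase that degrades p53, and its transcription by p53 closes the feedback loop. Germline WT libraries held 1241, 1152 and 1288 normalized counts and KO libraries 1210.2, 1433 and 1219.7, with only KO replicate 2 above the WT range. Inducible WT libraries held 1908 and 1846 and KO libraries 1888, 1923 and 2020.4, again overlapping. The log2 fold changes were 0.07 (95% CI −0.23 to 0.36) and 0.05 (95% CI −0.08 to 0.18), so that a rise of more than 1.13-fold lay outside the inducible interval.

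Phlda3 codes for a pleckstrin homology domain protein that blocks the membrane recruitment of AKT. Its germline values were 58.3, 66.4 and 59.6 normalized counts in WT and 83.5, 32.4 and 71.3 in KO libraries. KO replicates 1 and 3 lay above the WT range and KO replicate 2 below it. The log2 fold change was −0.08 (95% CI −0.9998 to 0.84), and 0.33 without KO replicate 2. With tamoxifen-induced deletion, it held 145 and 131 in WT and 159, 160.5 and 196 in KO libraries, which did not overlap. On the log2 scale KO minus WT came to 0.31 (SE 0.14, 95% CI −0.03 to 0.65), with an adjusted p of 0.832 (limma, Benjamini-Hochberg).

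The members that act at the mitochondrion did not pass the thresholds in either comparison. Bax had 657, 658 and 572 normalized counts in germline WT and 542, 753 and 507 in germline KO libraries, and 1088 and 1175 in inducible WT and 1083, 1092 and 1246 in inducible KO libraries. Both pairs of groups overlapped. The log2 fold changes were −0.08 (95% CI −0.52 to 0.35) and 0.01 (95% CI −0.18 to 0.20), the latter the smallest of all members in the inducible comparison. Without KO replicate 2 the germline value was −0.26.

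Bbc3 codes for PUMA, a BH3-only protein that frees BAX and BAK from their inhibitors. Germline WT libraries held 52.2, 56.0 and 76.8 normalized counts and KO libraries 79.0, 132 and 69.3. KO replicate 2 was highest and KO replicate 3 lay within the WT range. Its log2 fold change was 0.55 (95% CI −0.21 to 1.32), and 0.28 without KO replicate 2. The inducible libraries gave 149.8 and 121 in WT and 129, 152 and 133 in KO, with a log2 fold change of 0.03 (95% CI −0.33 to 0.39).

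Pmaip1, which codes for the BH3-only protein NOXA, was the member with the largest standard error in both comparisons (1.14 and 0.37 on the log2 scale). Germline WT libraries held 23.8, 24.3 and 139 normalized counts and KO libraries 139, 6.97 and 59.3. WT replicate 3 and KO replicate 1 were equally high and KO replicate 2 was lowest. The log2 fold change of −0.13 had a 95% CI of −2.83 to 2.57, which spans 0.141-fold to 5.94-fold, so that only a very large difference was detectable. Without KO replicate 2 the log2 fold change of Pmaip1 was 1.05. Among the inducible libraries, it held 117 and 216 in WT and 209, 136 and 317 in KO libraries, with a log2 fold change of 0.39 (95% CI −0.48 to 1.26). Summed over 8 endothelial marker genes, the germline libraries stood at 1827, 1373 and 2703 normalized counts in WT and 3232, 730 and 2150 in KO, highest and lowest in the same libraries as Pmaip1 among the KO. The mesenchymal sums, 21606, 600 and 10889 in KO, had the same order. In the inducible WT libraries the endothelial sums, 5069 and 3723, ran opposite to Pmaip1. The part of such cells in the Pmaip1 values was not tested.

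Perp codes for a tetraspan membrane protein of desmosomes that p53 also uses in apoptosis, and it was the member with the lowest level. Germline WT libraries held 34.4, 26.8 and 17.6 normalized counts and KO libraries 79.2, 42.6 and 32.1. KO replicates 1 and 2 lay above the WT range and KO replicate 3 within it. The log2 fold change was 0.89 (SE 0.44, 95% CI −0.16 to 1.94), or 1.95-fold by the ratio of means, with an adjusted p of 0.779 (limma, Benjamini-Hochberg). Without KO replicate 3 it was 1.17 and passed the study's thresholds. In the inducible comparison Perp held 23.6 and 24.5 in WT and 37.0, 45.6 and 22.6 in KO libraries, so that KO replicate 3 lay below both WT libraries. The fitted log2 fold change was 0.47 (95% CI −0.30 to 1.23), and 0.75 without KO replicate 3, where it passed the thresholds too.

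Trp53inp1 fell in the germline knockout, and in the inducible knockout its libraries lay slightly above WT without passing the thresholds. It codes for a nuclear and autophagosomal protein that promotes the phosphorylation of p53 and lies on chromosome 4 at 11083578 to 11101526 (plus strand, NCBIM37). The germline WT libraries held 2666, 2270.0 and 2369 normalized counts and the KO libraries 1313, 1051 and 1717. Every KO library lay below every WT library. Trp53inp1 fell by 0.86 on the log2 scale (SE 0.19, 95% CI −1.32 to −0.41), to 0.559 of the WT mean, and ranked 6 of 13938 genes by P. Its unadjusted P was 0.0027 and its adjusted p 0.779 (limma, Benjamini-Hochberg), and the exact permutation p was 0.1, below which 3 against 3 libraries cannot go. Without KO replicate 2 the log2 fold change was −0.69, and it passed the study's thresholds under every setting tried.

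With tamoxifen-induced deletion, Trp53inp1 held 2123 and 1852 normalized counts in WT and 2194, 2171 and 2302 in KO libraries. The groups did not overlap, but the WT libraries differed from each other by more than KO replicates 1 and 2 lay above the higher of them. On the log2 scale KO minus WT came to 0.16 (SE 0.07, 95% CI −0.00 to 0.33), with an adjusted p of 0.826 (limma, Benjamini-Hochberg). This interval did not overlap the germline one, −1.32 to −0.41, but whether the effects of the 2 comparisons differ was not tested.

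The order of the germline KO libraries in several members was also their order in genes that respond to low oxygen. The summed level of 12 hypoxia-responsive genes was 16052 to 16367 normalized counts in germline WT and 51938, 69572 and 19518 in KO replicates 1, 2 and 3, and 9 of the 12 were called higher. Trp53inp1 was lowest, and Cdkn1a and Bbc3 highest, in KO replicate 2, followed by KO replicate 1 and KO replicate 3 in all cases. The summed progenitor transcripts had the order of Trp53inp1 too. The sum of 12 progenitor markers was 82505, 73408 and 84166 in KO replicates 1, 2 and 3. It was 91018 to 97023 in WT, and 2 of the 12 were called lower. The markers did not fall as a group, as 7 of the 12 had log2 fold changes above 0 (44.0% of all genes). Orders of only 3 libraries coincide easily. The part of the low-oxygen response or of progenitors in the members' values was not tested. Among the inducible libraries, the hypoxia sums overlapped, at 32260 and 42611 in WT and 31270 to 38596 in KO libraries. Neuronal transcripts also set KO replicate 2 apart, with a sum over 15 markers of 107621 normalized counts against 27987 and 33826 in the other germline KO and 50220 to 62952 in the WT libraries.

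**Figure D3:**
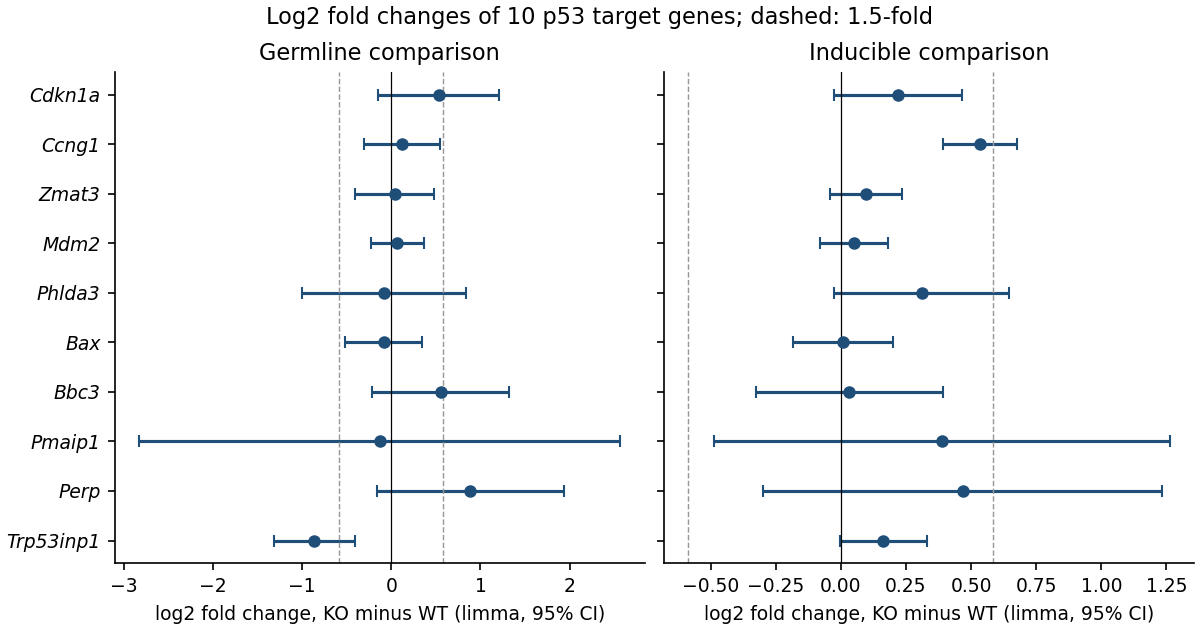
Log2 fold change (KO minus WT, horizontal axes scaled separately) of the 10 members in the germline (left) and inducible (right) comparison, with 95% confidence intervals from limma; dashed lines mark 1.5-fold in either direction. In the germline comparison the interval of Trp53inp1 alone lies off 0, and in the inducible comparison that of Ccng1 alone, from 0.39 to 0.68.

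Other p53 targets, which act in repair, metabolism, signalling and death, were tested from a list of 36, of which 33 passed the filter on low values in each table (Fas, Gdf15 and Ptprv did not). In the inducible comparison 1 of 33 was higher at the study's thresholds (0.802% of all genes) and none lower (0.49%). That gene was Eda2r, a receptor of the tumour necrosis factor receptor family on the X chromosome. It held 110.4 and 101 normalized counts in WT and 211, 247 and 243 in KO libraries, 2.21-fold higher by the ratio of means with no overlap. The log2 fold change was 1.13 (SE 0.13, 95% CI 0.83 to 1.43), ranked next after Ccng1 by P, with an adjusted p of 0.0605 (limma, Benjamini-Hochberg), and 0.0230 to 0.509 over the settings tried. It was under 0.05 with a pseudocount of 0.1, quantile normalization or library weights. Its row is one of 106 that the inducible table writes with 2 decimals and out of chromosome order, as is that of Kif20a but of no member. In the germline comparison Eda2r stood at 93.1, 75.0 and 78.4 in WT and 95.6, 75.1 and 80.4 in KO libraries, which overlapped throughout, with a log2 fold change of 0.03 (95% CI −0.52 to 0.57).

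The remaining targets of that list went both ways in the inducible comparison. At the P threshold alone 8 of 33 passed, against 6.01% of all genes. Of these, Eda2r, Sesn2, a sestrin that restrains mTORC1, Aen, a nuclease of apoptotic DNA, and 9630033F20Rik, which codes for the glycolysis regulator TIGAR, were higher. Gadd45a, a damage-induced arrest protein, Ddit4, an inhibitor of mTORC1, Sulf2, a heparan sulfatase, and Cd82, a tetraspanin, were lower. Sesn2 held 239 and 232 normalized counts in WT and 267, 318 and 346 in KO libraries, a log2 fold change of 0.39 (95% CI 0.08 to 0.69). Aen held 1288 and 1254 in WT and 1512, 1369.9 and 1475 in KO libraries, a log2 fold change of 0.19 (95% CI 0.04 to 0.34). Gadd45a held 221 and 219.5 in WT and 172, 156 and 151 in KO libraries, a log2 fold change of −0.46 (95% CI −0.74 to −0.19). None of the 8 had an adjusted p under 0.05 (limma, Benjamini-Hochberg). The median log2 fold change over the 33 was 0.03, and 22 of 33 were above 0, against 49.2% of all genes. The KO libraries lay above both WT libraries for 9 of 33 (10.4% of all genes) and below both for 5 of 33 (12.2%).

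In the germline comparison 2 of the 33 were higher at the study's thresholds (2.07% of all genes) and 1 was lower (0.667%). Sulf2 held 759.6, 1456 and 1579 normalized counts in WT and 2224, 2362 and 1873 in KO libraries, a log2 fold change of 0.83 (SE 0.28). Tap1, a peptide transporter of antigen presentation, held 7.54, 5.78 and 8.37 in WT and 26.9, 20.1 and 15.1 in KO libraries, a log2 fold change of 1.37 (SE 0.45) at a low level. 9630033F20Rik held 303, 319 and 270.0 in WT and 157, 198 and 222 in KO libraries and fell by 0.64 on the log2 scale (SE 0.19). In all 3 genes the groups did not overlap, and all 3 had an adjusted p of 0.779 (limma, Benjamini-Hochberg). Ddit4 held 671, 734 and 541 in WT and 3245, 9151 and 488 in KO libraries, the KO libraries standing in the same order as in the hypoxia sums. Ddit4 did not pass with the P computed here (0.080, limma), although the study lists it among the genes up-regulated in the germline knockout. At the P threshold alone 4 of 33 passed (5.39% of all genes), Sulf2, Tap1, 9630033F20Rik and Sesn1, another sestrin. Sesn1 held 849, 607 and 515 in WT and 438, 446 and 453 in KO libraries, a log2 fold change of −0.53 (SE 0.20). The KO libraries lay above all WT libraries for 4 of 33 (5.9% of all genes) and below them for 3 of 33 (7.55%). The median log2 fold change over the 33 was 0.15, and 19 of 33 were above 0, against 44.0% of all genes.

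p53 itself and the proteins that set its level or activity were listed as 22 genes, of which 20 were tested in each table, and none passed the study's thresholds in either direction. Trp53 held 743, 899 and 821 normalized counts in germline WT and 647, 907 and 798 in KO libraries, a log2 fold change of −0.08 (95% CI −0.47 to 0.31). With tamoxifen-induced deletion, it held 2960.0 and 2899.5 in WT and 2889.9, 2789 and 2896 in KO libraries, a log2 fold change of −0.04 (95% CI −0.15 to 0.08). Its protein level, through which p53 is mainly controlled, was not measured. At the P threshold alone 3 of 20 regulators passed in the germline comparison, against 5.39% of all genes. Mdm4, the MDM2 relative that masks p53, had a log2 fold change of 0.32, Usp28, a deubiquitinase that relays prolonged mitosis to p53, 0.32, and Ppm1d, the phosphatase that switches p53 off, −0.38. Among the inducible libraries, 1 of 20 passed (6.01% of all genes), Trp73, the p53 relative that is also a marker of Cajal-Retzius cells, with 1205 and 1153 in WT and 1022, 1044 and 830.3 in KO libraries and a log2 fold change of −0.30. None had an adjusted p under 0.05 (limma, Benjamini-Hochberg).

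The BCL-2 family and caspase genes outside the target lists numbered 23, 22 of them tested in the germline table and 23 in the inducible one, and none passed the study's thresholds. At the P threshold alone 0 of 22 germline and 3 of 23 inducible genes passed, against 5.39% and 6.01% of all genes. Bcl2, the protector of mitochondria, held 835 and 857 normalized counts in inducible WT and 1208, 992 and 986 in KO libraries, a log2 fold change of 0.32 (95% CI 0.09 to 0.55). Bak1, the partner of Bax, had −0.17 (95% CI −0.33 to −0.01), and Bmf, a BH3-only protein, −0.32 (95% CI −0.59 to −0.06). None of the 3 had an adjusted p under 0.05 (limma, Benjamini-Hochberg). The list's median was −0.04 in the germline knockout and −0.03 in the inducible one.

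**Figure D4:**
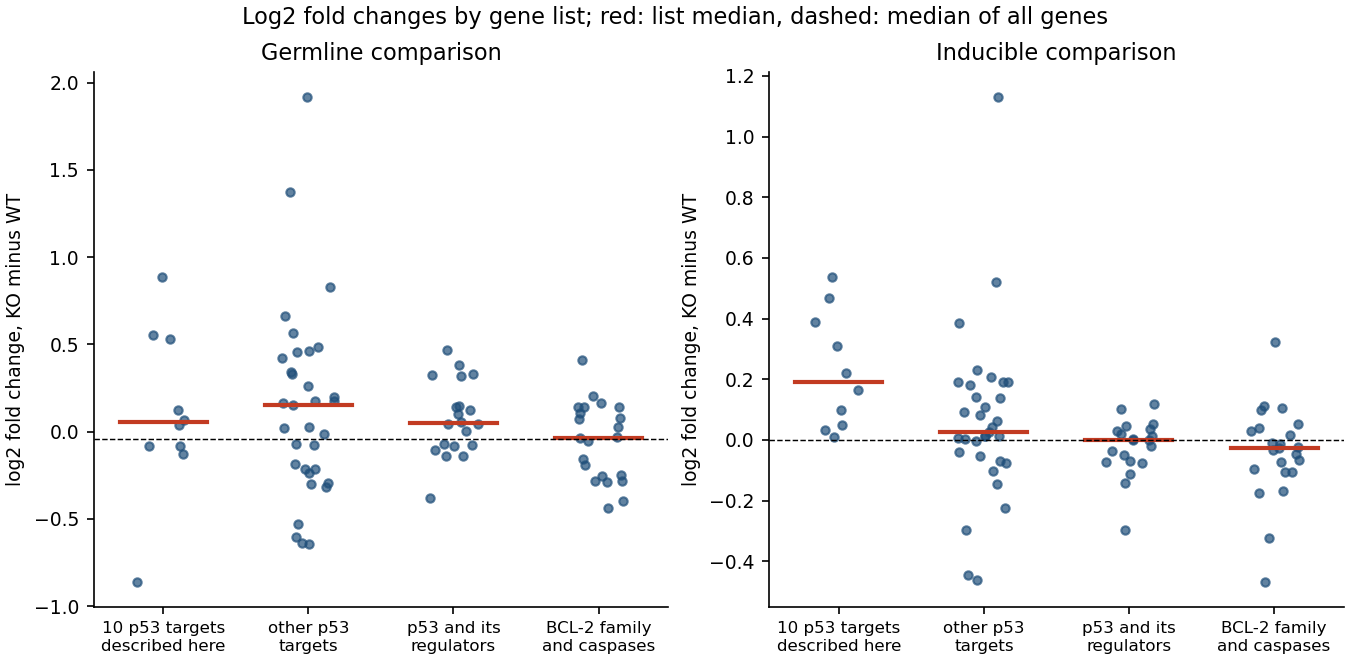
Log2 fold change (KO minus WT, vertical axes scaled separately) of every tested gene in 4 lists, in the germline (left) and inducible (right) comparison; points are genes, spread sideways only to be seen, red bars are list medians and the dashed line is the median of all genes tested. In the inducible comparison all 10 members lie above 0 with a median of 0.19 (Bax, Bbc3 and Pmaip1 cross 0 under some of the settings tried). The medians of the other lists lie between −0.03 and 0.03, and of the other p53 targets 22 of 33 lie above 0.

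The Cre transgene and the Y-linked transcripts stood beside every inducible difference. Esr1, whose ligand-binding part is fused to Cre in CreERT2, held 0.987 and 0.00797 normalized counts in WT and 142, 163 and 135 in KO libraries. The separation of Ccng1 and Eda2r followed the same split of libraries, and a part of sex, of Cre or of tamoxifen-activated recombination in it cannot be told apart from Kif20a. In the germline libraries, where Y-linked transcripts summed to 1714, 10 and 4582 in WT and 4, 0 and 1376 in KO, the libraries with high sums (WT replicates 1 and 3 and KO replicate 3) overlapped with the other 3 in both genes. Their Ccng1 levels were 847, 996 and 935 normalized counts, against 887, 1254 and 824 in the others. WT and KO were unevenly spread over that split, and a part of sex in either gene was not tested.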

How the data were processed

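Mouse forebrain RNA was measured in 11 libraries. The deposited signal is a normalized count per gene: reads were mapped to mm9 by the authors with TopHat (1.2.0 in the submitters' processing notes), summed over the RefSeq exons of each gene, and scaled between libraries by edgeR (TMM). The values are not whole and the 2 tables were normalized apart. No per-sample column was left unused (0 columns). Groups came from the sample titles. Whether replicates are separate embryos is not stated beyond littermates, so p-values measure the spread between these libraries. Counting error cannot be given because raw depth is unknown.

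Genes averaging 10 normalized counts or more were fitted as log2(normalized count + 1) with limma 3.58.1 in R 4.3.3 (lmFit, eBayes with trend, two-sided, WT against KO within each table), with Benjamini-Hochberg adjustment over all genes tested. Fold changes are on that scale and understate those of low genes. The study's thresholds were applied to the P values of this fit, so the genes called can differ from those the study lists. The script was tested on simulated data. The tables lack gene lengths, so values per kilobase were computed with GENCODE M1 exon lengths, a choice made after seeing the data. All 10 members are named, with Kif20a and the genes of 3 further p53 and apoptosis lists past the study's thresholds; genes of those lists past P alone, Trp53, Ddit4 and Esr1 were chosen after their values were seen. The members and lists were chosen with earlier results of these data known. Promoter sequences are from RefSeq (GRCm38.p6), with entries for 6 of 10 members, and gene positions from GENCODE M1 (NCBIM37).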

Additional observations from a re-analysis of the deposited data

Results flagged for a closer look

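For 4 genes of the p53 and apoptosis lists every germline KO library lay on one side of all WT libraries and every inducible KO library on the other side. The search covered the tested genes among the 10 members and the 81 genes of the 3 further lists. Of all germline genes, the KO libraries lay above all WT libraries for 5.9% and below them for 7.55%. In the inducible comparison these shares were 10.4% and 12.2%. The share of all genes with opposite sides was not counted. Trp53inp1 had log2 fold changes of −0.86 (germline) and 0.16 (inducible). 9630033F20Rik, the gene for TIGAR, had −0.64 and 0.21, Sulf2 had 0.83 and −0.30, and Triap1, which inhibits the activation of caspases and passed no threshold, had −0.32 and 0.11. The difference between the comparisons was not tested.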

How the results depend on the processing

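Other pseudocounts (0.1 and 5), no filter, quantile normalization, library weights, no mean-variance trend, a replicate block, a Y-linked covariate (germline only), values per kilobase (added after seeing the data) and leaving out each library were tried. Trp53inp1 stayed past the study's thresholds in the germline comparison under all of them, with P from 0.00056 to 0.0131. In the germline comparison, library weights gave 1 member higher (Perp), a median of 0.25 and log2 fold changes of −0.0082 for Mdm2, 0.60 for Pmaip1, 0.27 for Phlda3 and −0.11 for Zmat3. The Y-linked covariate gave 0.68, 0.069 and −0.10 for the last 3, and quantile normalization 0.14 for Pmaip1. Leaving out 1 library gave 0 to 1 members higher and a median of 0.011 to 0.24, with log2 fold changes of −0.013 to 0.11 for Mdm2, −0.048 to 0.25 for Ccng1, −0.26 to 0.027 for Bax, −1.02 to 1.05 for Pmaip1, −0.34 to 0.33 for Phlda3 and −0.13 to 0.17 for Zmat3. In the inducible comparison, quantile normalization gave −0.00022 and library weights −0.022 for Bax, with a median of 0.13 under the weights. Leaving out 1 library gave 0 to 1 members higher (Perp), a median of 0.11 to 0.24, and −0.056 to 0.065 for Bax, −0.12 to 0.19 for Bbc3 and −0.049 to 0.83 for Pmaip1. The adjusted p of Ccng1 was under 0.05 with a pseudocount of 0.1 (0.0394), no filter (0.0445) and library weights (0.0230), and lay between 0.135 and 0.436 with 1 library left out. The cause of these shifts was not tested.

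Same-numbered WT and KO libraries deviated from their group means with r of −0.12, 0.31 and 0.25 in the germline and −0.35 and −0.05 in the inducible comparison. Germline libraries of different numbers gave r from −0.36 to 0.33. Deviations from the mean of so few libraries are tied to each other, so these values cannot decide whether replicate numbers pair the libraries. With the replicate block, which drops inducible KO replicate 3, 1 member was higher (Perp), the median was 0.11, Bax was at −0.056 and Ccng1 had an adjusted p of 0.509. The number of all germline genes past the thresholds, 289 higher and 93 lower, was 560 and 484 with library weights, 105 and 81 with the Y-linked covariate, 587 and 642 without KO replicate 2 and 617 and 403 without KO replicate 3. The number of all inducible genes, 113 higher and 69 lower, was 212 and 145 without a filter, 42 and 38 per kilobase and 250 and 72 without WT replicate 1.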
